A study of Homo sapiens with 4 samples.

Results

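Aminoacyl-tRNA synthetases are the enzymes that join each amino acid to its tRNA, the step that fixes the meaning of the genetic code. The genes described here are 35 such enzymes, chosen by gene symbol from a given list of 19 cytosolic and 16 mitochondrial synthetases, among 18417 genes that could be named on the array. All 35 had a probe set, which is the group of array probes summarised into a single value. Nuclear genes encode both sets. The mitochondrial enzymes charge the tRNAs with which mitochondria make their own few respiratory chain subunits, and the enzymes encoded by GARS1 and KARS1 serve both compartments. Synthetases fall into unrelated structural classes, class I and class II, and several cytosolic ones sit together in a multisynthetase complex. When charged tRNA runs short or other stresses phosphorylate eIF2α, the transcription factor ATF4 is translated and raises genes of amino acid supply, among them many cytosolic synthetase genes.

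The study asked which genes respond to atovaquone, an antimalarial naphthoquinone and inhibitor of respiratory complex III. Cells of the multiple myeloma line U266 were kept for 2 h with 15 µM atovaquone or with the DMSO vehicle. Cells of the chronic myeloid leukaemia line K562 were kept for 5 h with 20 µM atovaquone or with the DMSO vehicle. RNA from each of these 4 groups was hybridised to 1 array, so there was no replicate, no test was run, and every ratio describes a pair of arrays. Dose, duration and cell line all differed between the U266 and K562 comparisons and cannot be told apart.

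Array medians ran from 314 to 340 intensity units. Of 10 plasma cell markers 9 were at least 2-fold higher on the U266 vehicle array, and of 8 erythroid and megakaryocytic markers with a probe set 7 were at least 2-fold higher on the K562 vehicle array. Of 10 markers of other cell types 3 were at least 2-fold higher in K562, namely LYZ, EPCAM and KRT18. An intensity below its array's 40th percentile over listed probe sets was raised to that floor (305 to 331 units), and a gene above it on both arrays of a comparison is called measured. Log2 ratios were centred on the median of measured probe sets. The arrays read bulk RNA, so a change in all cells and a larger change in some of them cannot be told apart.

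ATF4 acts with C/EBP partners at the C/EBP-ATF response element, whose core is written here as TGATGNAA, where N is any base. Windows from 250 bases before to 50 bases after each listed RefSeq start (build GRCh38.p14) were searched on both strands in the 30 synthetase genes with a listed promoter, 9 of which had several. A gene was counted where any of its promoters held the motif. LARS1, VARS1, YARS1, AARS2 and VARS2 were unmatched. Of 16 cytosolic genes 7 held the core, and of 14 mitochondrial genes 1 did, YARS2, against 4.46% of 27305 genes counted the same way. Per promoter these were 7 of 21 cytosolic and 1 of 18 mitochondrial promoters, against 3.62% of 35116. TARS1, GARS1 and CARS1 each had another listed promoter with no match. The stricter form TGATGCAA, which is contained in the first motif, was present in 6 of the 16 cytosolic and 0 of the 14 mitochondrial genes, against 1.08% of all genes. These shares of all genes include genes not measured here. Among the 8664 genes with a listed promoter that were measured in K562, 2.53% held the core and 0.716% the stricter form. The matches are shown because the cytosolic set that holds them includes the highest cytosolic ratios in K562. Each is printed as 30 bases along the gene's own strand, 5′ to 3′, with the match in capitals. TTGCATCA is TGATGCAA read from the opposite strand.

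AARS1: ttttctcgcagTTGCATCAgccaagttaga
CARS1: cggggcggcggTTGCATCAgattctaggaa
GARS1: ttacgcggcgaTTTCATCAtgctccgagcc
IARS1: ttttcagcgcgTTGCATCAcctccgtgcgc
MARS1: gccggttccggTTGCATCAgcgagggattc
NARS1: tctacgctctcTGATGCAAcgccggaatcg
TARS1: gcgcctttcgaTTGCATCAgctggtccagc
YARS2: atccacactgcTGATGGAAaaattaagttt

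These windows lie at chr16:70289675-70289704 (minus strand) for AARS1, chr11:3057407-3057436 (minus) for CARS1, chr7:30594834-30594863 (plus) for GARS1 and chr9:92293692-92293721 (minus) for IARS1. Those of MARS1, NARS1, TARS1 and YARS2 lie at chr12:57488053-57488082 (plus), chr18:57621804-57621833 (minus), chr5:33440956-33440985 (plus) and chr12:32756076-32756105 (minus). Counted from the listed start of the promoter that holds it, the first base of the match stood at −187 in AARS1, −33 in GARS1, −13 in IARS1, −4 in MARS1 and −2 in CARS1. In TARS1 and NARS1 it lay inside the transcript, at position 3 and position 15. In 5 of the 7 cytosolic genes the match thus began before the start site. The GARS1 and YARS2 matches differ from the stricter form at the base marked N. Such a match is a description of letters and not a shown binding site.

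The K562 log2 ratios of the cytosolic genes with the core ran from 0.16 in IARS1 to 0.57 in AARS1, with a median of 0.33. The 9 cytosolic genes without it ran from −0.20 to 0.49, with a median of 0.08, so the ranges overlapped. WARS1, at 0.49, had no match. YARS2, the mitochondrial gene with a match, stood at −0.12. Among all 219 genes measured in K562 whose promoter held TGATGNAA, 16.9% lay in the highest 10% of ratios, and among the 62 with TGATGCAA 19.4% did, against 9.87% of the 8664 measured genes with a listed promoter. The synthetases were not taken out of these counts, so the shares partly repeat their values. AARS1, CARS1, MARS1 and TARS1 are among the 12 of the 62 in the highest 10%. With GARS1 they are also among the 37 of the 219. The base sequence before the start is printed for AARS1, which had the highest cytosolic ratio in K562, and for the first of the listed starts of WARS2, which had the highest mitochondrial one and no match in any listed promoter. They are the 250 bases at chr16:70289507-70289756 (minus) and chr1:119140673-119140922 (minus), with the core in capitals where present.

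AARS1: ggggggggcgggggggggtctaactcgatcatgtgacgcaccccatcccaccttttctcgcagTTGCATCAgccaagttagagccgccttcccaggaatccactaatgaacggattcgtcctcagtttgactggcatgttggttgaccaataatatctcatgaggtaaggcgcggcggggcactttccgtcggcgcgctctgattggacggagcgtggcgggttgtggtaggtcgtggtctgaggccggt
WARS2: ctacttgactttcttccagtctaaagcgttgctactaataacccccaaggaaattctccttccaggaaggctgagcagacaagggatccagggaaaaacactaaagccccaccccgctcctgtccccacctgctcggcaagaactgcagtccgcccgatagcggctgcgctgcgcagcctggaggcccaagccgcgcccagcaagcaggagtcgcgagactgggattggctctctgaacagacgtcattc

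After 5 h of atovaquone in K562, most cytosolic synthetase genes had a modestly higher intensity than with vehicle. Their median log2 ratio was 0.19, against −0.0057 for all 10756 genes measured on both K562 arrays. The 16 mitochondrial genes had a median of 0.03. Of the 19 cytosolic genes 15 lay above 0, against 48.8% of all genes, and of the mitochondrial genes 9 of 16 did. At a fixed size of at least 1.5-fold, 0 cytosolic genes and 1 mitochondrial gene (WARS2) were higher, against 1.42% of all genes, and 0 of either set were lower, against 0.697%. The share of members past 1.5-fold was therefore near the background, and the higher cytosolic median came from many small differences. At 2-fold 0 of 35 were higher and 0 lower, against 0.26% and 0.13%. Among the 10% of all genes with the highest K562 ratios (log2 ratio of at least 0.25), a size chosen after the values were seen, were 9 of 19 cytosolic and 2 of 16 mitochondrial genes.

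**Figure D1:**
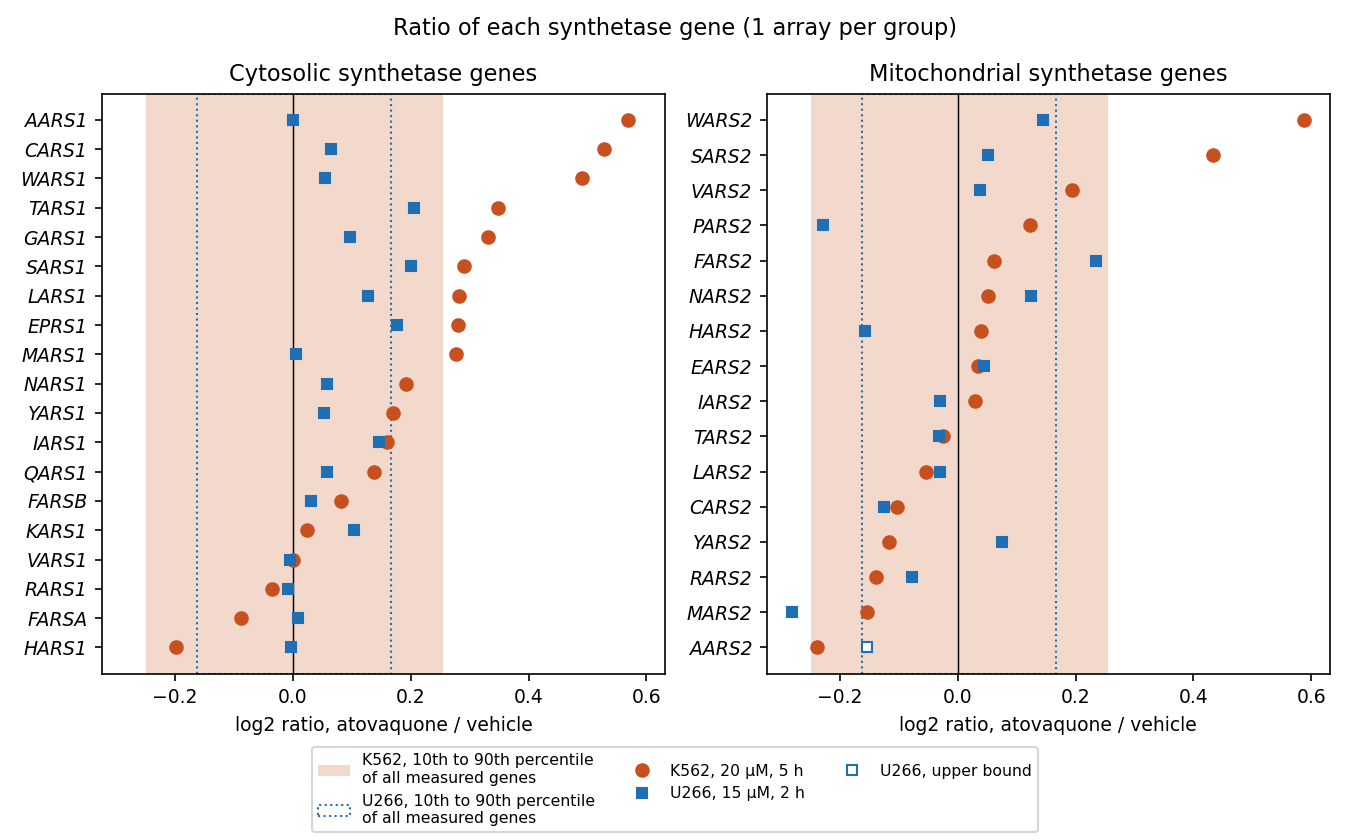
Log2 ratio of atovaquone to vehicle for each synthetase gene, with K562 as circles and U266 as squares, and the 10th to 90th percentile of all measured genes shaded for K562 and dotted for U266. In K562, 9 cytosolic and 2 mitochondrial genes lie to the right of the shaded band, while in U266 all points lie between −0.28 and 0.23.

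AARS1, which charges alanine tRNA, had an intensity of 3006 with vehicle and 4446 with atovaquone in K562. This is a log2 ratio of 0.57, just under the fixed size, and rank 168 of 10756 genes. CARS1, the cysteine enzyme, read 798 and 1147, a log2 ratio of 0.53. WARS1, the tryptophan enzyme, which interferon also raises in many cells, read 3572 and 5001, a log2 ratio of 0.49. These were the 3 highest cytosolic ratios, and 1.56%, 1.92% and 2.28% of all genes had a ratio as high or higher.

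Next came TARS1 (threonine) at a log2 ratio of 0.35 and GARS1 (glycine, both compartments) at 0.33. GARS1 went from an intensity of 5937 to 7443. SARS1 (serine) stood at 0.29, and LARS1 (leucine), EPRS1 (a fused glutamate and proline enzyme) and MARS1 (methionine) all stood at 0.28. These 6 genes completed the 9 in the highest 10%. Below them NARS1 (asparagine) had a ratio of 0.19, YARS1 (tyrosine) 0.17, IARS1 (isoleucine) 0.16 and QARS1 (glutamine) 0.14, which placed them in the highest 25% of all genes.

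At the low end of the cytosolic set were HARS1, the histidine enzyme, FARSA, the catalytic subunit of the phenylalanine enzyme, and RARS1, the arginine enzyme. HARS1 had an intensity of 2586 with vehicle and 2247 with atovaquone, a log2 ratio of −0.20, and was the single cytosolic gene in the lowest 25% of all genes. FARSA read 4323 and 4054, a ratio of −0.09, while FARSB, which encodes the partner subunit of the same enzyme, read 5894 and 6217, a ratio of 0.08. RARS1 read 2855 and 2777, a ratio of −0.04. VARS1 (valine) was level, with 3020 and 3009, and KARS1 (lysine, both compartments) stood at 0.02. GARS1 and KARS1, both serving mitochondria as well, thus lay at different places in the list.

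**Figure D2:**
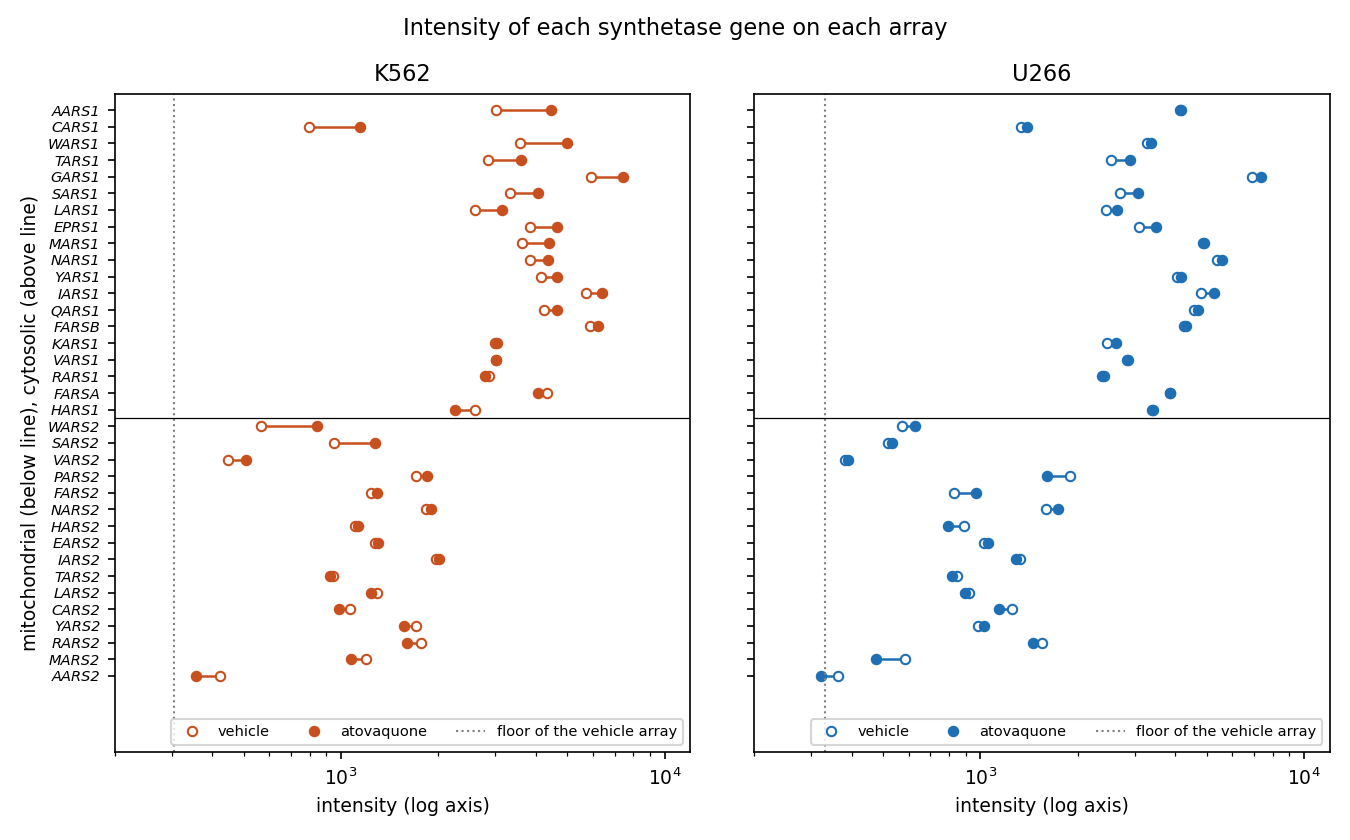
Intensity of each synthetase gene on a log axis, open circles for vehicle and filled circles for atovaquone, with K562 on the left and U266 on the right and genes in the order of their K562 ratio within each compartment. Each line is read along its own gene, since intensities of different probe sets cannot be compared, and the longest K562 lines belong to AARS1, CARS1, WARS1, WARS2 and SARS2.

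The cytosolic genes had like medians in both structural classes. Class I genes had a K562 median of 0.17 (9 genes) and class II genes 0.19 (9 genes), with EPRS1, which joins both, at 0.28. The 7 enzymes of the multisynthetase complex (EPRS1, IARS1, KARS1, LARS1, MARS1, QARS1 and RARS1) had a median of 0.16 and ran from −0.04 to 0.28, and the 12 outside it had a median of 0.24 and ran from −0.20 to 0.57. AIMP1, a scaffold of the complex, read 1266 and 1571 in K562, a log2 ratio of 0.32. The other scaffold genes, AIMP2 and EEF1E1, had no probe set of their own.

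A larger split appeared when the cytosolic genes were divided by whether they are commonly named as ATF4 targets. The 13 so listed (AARS1, CARS1, EPRS1, GARS1, IARS1, LARS1, MARS1, NARS1, SARS1, TARS1, VARS1, WARS1 and YARS1) had a K562 median of 0.28, and 9 of them lay in the highest 10% of all genes. The 6 others (FARSA, FARSB, HARS1, KARS1, QARS1 and RARS1) had a median of −0.0056 and 0 in the highest 10%. This division was written from general knowledge with earlier results of these data known, and it is a description without a test. VARS1 was the listed gene without a higher value, and QARS1 at 0.14 the highest of the others. Of the reference genes of the same response, ASNS, asparagine synthetase, was 2.83-fold higher in K562 and DDIT3, which encodes CHOP, 4.27-fold, both farther from 0 than any synthetase. ATF4 itself was 1.28-fold higher, less than AARS1, CARS1 and WARS1. The reference genes were also higher in U266. There DDIT3 read 1153 and 2661, or 2.32-fold higher, while ASNS was 1.18-fold and ATF4 1.07-fold higher.

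Among mitochondrial genes the K562 ratios gathered around 0, with WARS2 and SARS2 as the exceptions. WARS2, the mitochondrial tryptophan enzyme, had an intensity of 564 with vehicle and 845 with atovaquone, a log2 ratio of 0.59. It stood almost exactly at the fixed size, and with quantile normalisation or without centring on the median ratio it was not counted. SARS2, the mitochondrial serine enzyme, read 949 and 1277, a ratio of 0.43. VARS2 (valine) came next at 0.19 with 447 and 509, not far above the floor. PARS2, the proline enzyme, stood at 0.12.

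The lowest mitochondrial ratios in K562 were those of AARS2, MARS2 and RARS2. AARS2, the mitochondrial alanine enzyme, read 423 and 357, a log2 ratio of −0.24. MARS2 (methionine) read 1198 and 1073, a ratio of −0.15, and RARS2 (arginine) 1770 and 1602, a ratio of −0.14. YARS2 (tyrosine) and CARS2 (cysteine) followed at −0.12 and −0.10. The other 7, LARS2, TARS2, IARS2, EARS2, HARS2, NARS2 and FARS2, lay between −0.05 and 0.06, within the spread of 0.12 (SD) between probe sets of the same gene on these arrays. That SD comes from 370 genes with several probe sets and leaves out any spread between cultures.

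Brightness differed between the compartments. The mean K562 intensity of the cytosolic genes had a median of 4009 and that of the mitochondrial genes 1199. Among all genes in the brightness range of the cytosolic members, 8.61% lay in the highest 10% and the median log2 ratio was −0.0089. In the range of the mitochondrial members these values were 12.3% and −0.0024. The medians of both ranges thus lay near that of all genes, and the dimmer range held a larger share of genes in the highest 10%.

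**Figure D3:**
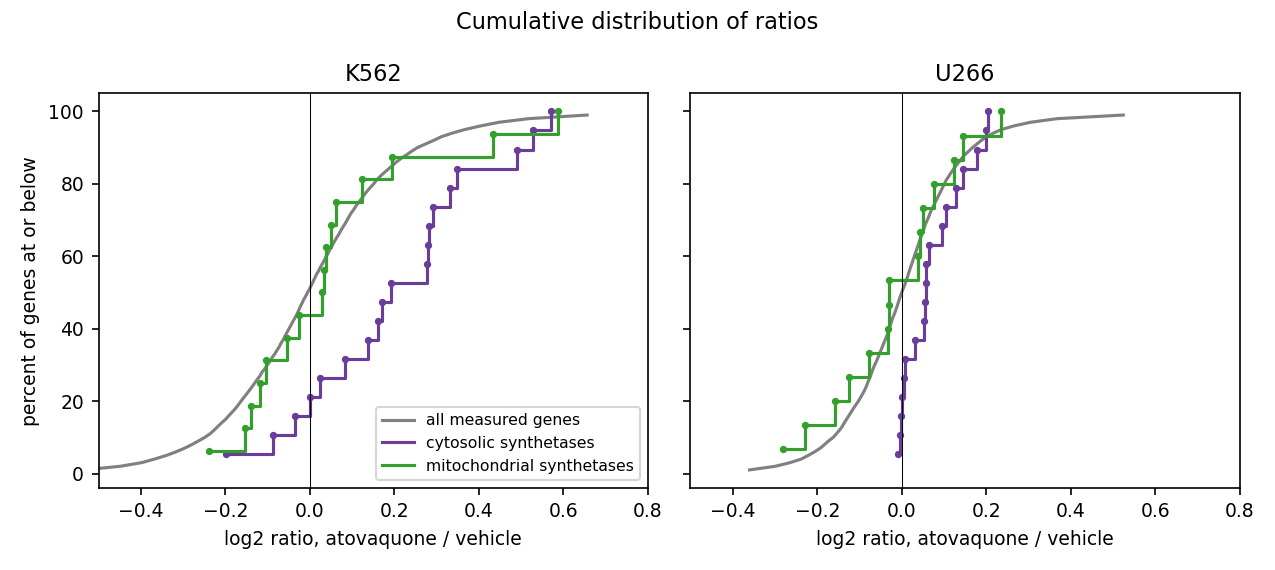
Cumulative share of genes (percent) at or below each log2 ratio, for all measured genes, the cytosolic and the mitochondrial synthetases, in K562 and in U266. The cytosolic curve lies to the right of that of all genes in K562, with medians of 0.19 and −0.0057, and by less in U266, with medians of 0.06 and −0.00012.

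Cells make a cytosolic and a mitochondrial enzyme from separate genes for most amino acids, and 13 amino acids had exactly 1 gene of each kind on the list. In K562 the cytosolic gene had the higher ratio for 9 of the 13, with a median difference of 0.14. The gap was widest for alanine, at 0.81 (AARS1 at 0.57 and AARS2 at −0.24), followed by cysteine at 0.63 (CARS1 at 0.53 and CARS2 at −0.10) and methionine at 0.43. The mitochondrial gene was higher for histidine, valine, serine and tryptophan. Tryptophan was the single amino acid for which both genes exceeded 0.45, WARS1 at 0.49 and WARS2 at 0.59. Serine was similar, with SARS1 at 0.29 and SARS2 at 0.43.

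**Figure D4:**
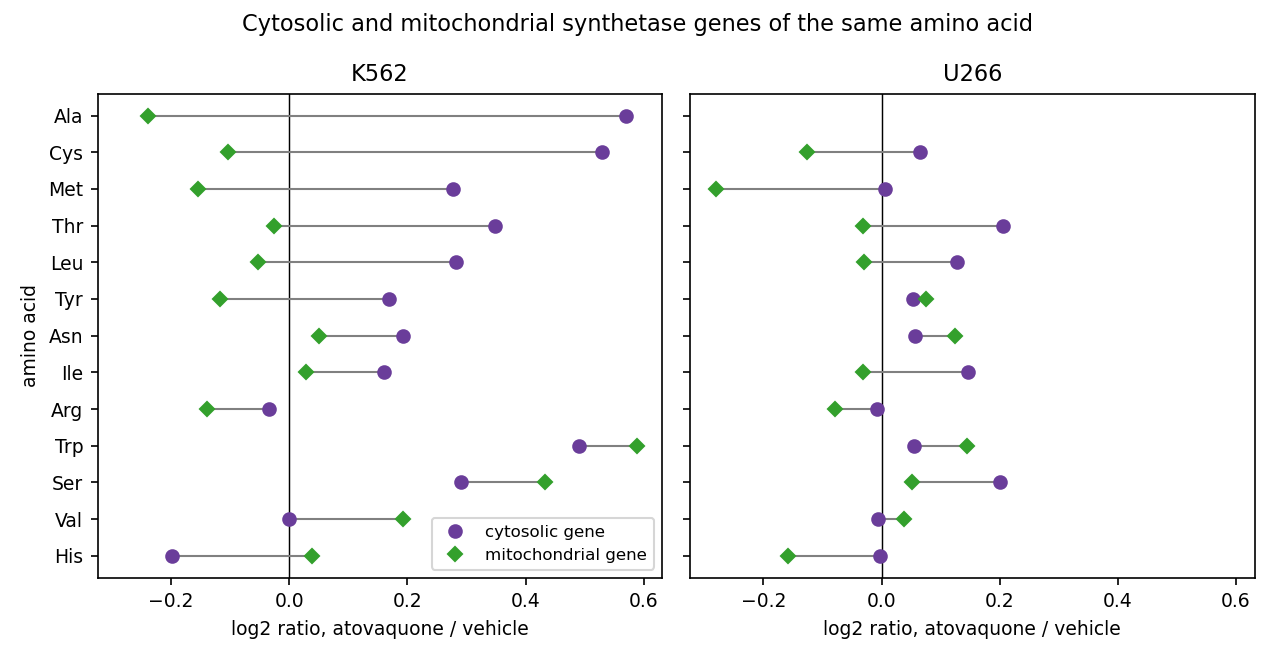
Log2 ratio of the cytosolic gene (circles) and the mitochondrial gene (diamonds) for each amino acid with 1 gene of each kind, in K562 and U266, ordered by the K562 difference. Alanine has the widest gap in K562, 0.81, and is not drawn for U266 because AARS2 has only a bound there.

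After 2 h of atovaquone in U266 the synthetase genes differed little from vehicle. The median log2 ratio was 0.06 for the 19 cytosolic genes and −0.03 for the 15 mitochondrial genes measured on both arrays, against −0.00012 for all 10731 measured genes. At 1.5-fold 0 synthetase genes were higher and 0 lower, against 0.857% and 0.0932% of all genes, and at 2-fold likewise 0 and 0, against 0.326% and 0%. Of the cytosolic genes 16 of 19 lay above 0, against 50% of all genes and 55.3% of genes in their range of brightness, and 3 were in the highest 10% (log2 ratio of at least 0.17). Several lay so close to 0 that the count above it was 13 without centring and 19 with no floor. The SD between probe sets of the same gene was 0.11 here, which exceeded the size of most U266 ratios of synthetases.

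The highest cytosolic ratios in U266 were those of TARS1, SARS1 and EPRS1. TARS1 had an intensity of 2524 with vehicle and 2890 with atovaquone, a log2 ratio of 0.21. SARS1 read 2692 and 3071, a ratio of 0.20, and EPRS1 3094 and 3476, a ratio of 0.18. All 3 were also in the highest 10% in K562. AARS1, the highest cytosolic gene in K562, was level in U266 with 4155 and 4128, and CARS1 and WARS1 stood at 0.07 and 0.05. IARS1 at 0.15, LARS1 at 0.13, KARS1 at 0.10 and GARS1 at 0.10 followed the leading 3, and NARS1, QARS1 and YARS1 lay between 0.05 and 0.06. FARSB was at 0.03 and FARSA and MARS1 within 0.01 above 0.

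The lowest cytosolic values in U266 were all close to 0. RARS1 read 2402 and 2373, a ratio of −0.0077, VARS1 2866 and 2837, a ratio of −0.0053, and HARS1 3413 and 3384, a ratio of −0.0027. HARS1 and RARS1 were thus at the low end in both lines. Across the 19 cytosolic genes the ranks of the U266 and K562 ratios had a Spearman correlation of 0.46, against 0.10 across 9222 genes on all arrays. The 15 mitochondrial genes measured in both lines had a like value, 0.48. The comparisons share no array, but the points share their probes, and genes are not independent replicates.

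The mitochondrial genes spread to both sides in U266. FARS2, the phenylalanine enzyme, had an intensity of 832 with vehicle and 972 with atovaquone, the highest ratio of all synthetases at 0.23. WARS2 read 573 and 629, a ratio of 0.14, and NARS2 (asparagine) 1600 and 1732, a ratio of 0.12. At the low end MARS2 went from 584 to 477, a ratio of −0.28, PARS2 from 1889 to 1601, a ratio of −0.23, and HARS2 from 893 to 795, a ratio of −0.16. MARS2 was the lowest of the measured synthetases in U266 and also below 0 in K562. CARS2 stood at −0.13 and RARS2 at −0.08. AARS2 read 362 with vehicle and 322 with atovaquone, just under that array's floor of 324, so it was at least 1.11-fold lower. The other 6, YARS2, SARS2, EARS2, VARS2, LARS2 and IARS2, lay between −0.03 and 0.08, and TARS2 stood at −0.03.

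Among the 12 amino acids with both genes measured in U266, the cytosolic gene had the higher ratio for 8. Methionine showed the widest gap at 0.29, through the low value of MARS2, and threonine followed at 0.24. Serine, which had the higher mitochondrial value in K562, had the higher cytosolic one in U266.

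Set side by side, the cytosolic genes had a higher ratio in K562 than in U266 for 15 of 19, with a median difference of 0.10, against 48.9% of all genes and a median of −0.0060. For mitochondrial genes this held for 9 of 15, with a median of 0.02. The largest differences were 0.57 for AARS1, 0.46 for CARS1, 0.44 for WARS2, 0.44 for WARS1 and 0.38 for SARS2. All 13 genes named as ATF4 targets had a higher ratio in K562, by 0.0050 in VARS1 at the least, and of the 6 other cytosolic genes 2 did. HARS1 and YARS2 lay farthest the opposite way, at −0.20 and −0.19. These differences were not tested, since each line has 1 array per group.

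With vehicle alone the median difference between the lines was larger for the mitochondrial than for the cytosolic synthetases. The U266 cells had been in vehicle for 2 h and the K562 cells for 5 h, so line and time cannot be told apart here either. On the vehicle arrays, 13 of 16 mitochondrial genes were lower in U266 than in K562, with a median log2 difference (U266 minus K562) of −0.24, and 12 of 19 cytosolic genes were lower, with a median of −0.06. The background was 50.5% of 9483 measured genes and a median of −0.0071. In this comparison the SD between probe sets of the same gene was 0.38. It is a spread of single ratios and does not measure that of a median over genes. With 1 vehicle array per line the spread of these medians between cultures could not be measured. At least 1.5-fold higher in K562 were 3 mitochondrial and 0 cytosolic genes, against 16.2% of all genes, and at least 1.5-fold higher in U266 were 0 and 1, against 17.7%. At 2-fold 1 synthetase gene was higher in K562 and 0 in U266, against 6.97% and 7.97%. For the mitochondrial genes 3 of 16 is close to the share of all genes, so the count past 1.5-fold is not a result about them.

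MARS2 differed most, with an intensity of 584 in U266 and 1198 in K562, or 2.02-fold higher in K562. SARS2 read 519 and 949, 1.80-fold higher in K562, and YARS2 982 and 1701, 1.70-fold. FARS2 and IARS2 followed with log2 differences of −0.55 each. The gene higher in U266 by at least 1.5-fold was CARS1, with 1337 against 798, or 1.71-fold. It was followed by NARS1 at 0.52, AARS1 at 0.49, MARS1 at 0.46 and HARS1 at 0.43. FARSB had the lowest cytosolic value, −0.45, while its partner FARSA stood at −0.14. AARS1 and CARS1, the 2 highest cytosolic genes in the K562 treatment comparison, thus had a lower intensity on the K562 than on the U266 vehicle array. The vehicle array of K562 enters both comparisons, so these values are not independent. With atovaquone AARS1 read 4446 in K562, beside 4128 in U266, and CARS1 1147 beside 1390.

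**Figure D5:**
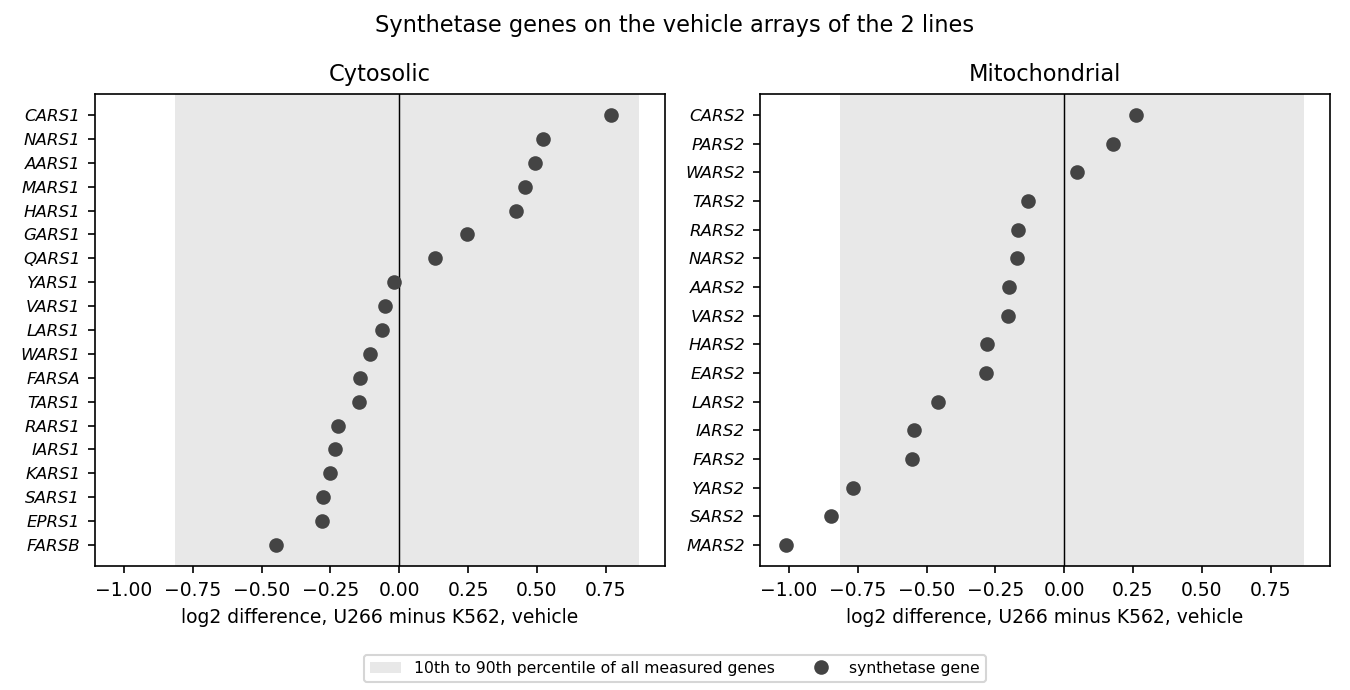
Log2 difference between the vehicle arrays, U266 minus K562, for each cytosolic and mitochondrial synthetase gene, with the 10th to 90th percentile of all measured genes shaded. MARS2 and SARS2 lie to the left of the band, and 13 of 16 mitochondrial genes lie left of 0.

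Genes that work beside the synthetases were read from lists written for the purpose. In the list of tRNA export and charging accessories, 14 of 15 genes were measured in K562, with a median of 0.10 and 1 gene at least 1.5-fold higher, against 1.42% of all genes. That gene was SEPSECS, which completes the synthesis of selenocysteine on its tRNA after the serine synthetase has loaded it. SEPSECS read 721 with vehicle and 1411 with atovaquone in K562, a log2 ratio of 0.97 or 1.96-fold, and 958 and 797 in U266, a ratio of −0.26. PSTK, the kinase that acts just before SEPSECS, had a K562 ratio of 0.33. XPOT, the exportin that carries tRNA out of the nucleus, read 3154 and 4564 in K562, a ratio of 0.54, and 3488 and 3619 in U266, a ratio of 0.06. TRMU, which thiolates mitochondrial tRNAs, read 678 and 499 in K562, a ratio of −0.44.

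Factors of later steps were also read. In K562 the 11 measured mitochondrial translation factors had a median of 0.12 and a mean of 0.05. Of these, 6 lay above 0 and 5 below, against 48.8% of all genes above 0. At 1.5-fold 0 were different, against 1.42% of all genes higher and 0.697% lower. MTIF3, an initiation factor, had the highest ratio at 0.30, and the lowest ratio was −0.23. The list of cytosolic elongation genes also holds the release factors ETF1 and GSPT1 and EEF2K, a kinase that inhibits elongation. Its 8 measured genes had a median of −0.0042, with EEF1D, a subunit of the exchange factor, highest at 0.18. ETF1, GSPT1 and EEF2K stood at −0.09, −0.04 and −0.11. Of the elongation factors proper, EEF1A1, EEF2 and EEF1G stood at 0.10, 0.09 and 0.04, and EEF1B2 at −0.08. The 25 measured initiation factors had a median of 0.0016 with 0 at least 1.5-fold different, and the translation repressor gene EIF4EBP1 led them at 0.52. In U266 the medians of these lists were −0.01, 0.06 and 0.05, also with 0 genes at least 1.5-fold different, against 0.857% of all genes higher and 0.0932% lower. Of the 4 eIF2α kinases and the GCN2 activator GCN1, EIF2AK3, which encodes PERK, was at least 1.5-fold higher in U266, from 1987 to 3329, a ratio of 0.75, and stood at 0.06 in K562. That is 1 of 5 genes, against 0.857% of all genes in U266. EIF2AK4, which encodes GCN2, the sensor of uncharged tRNA, stood at 0.05 in U266 and 0.11 in K562. GCN1 went from 2812 to 2304 in U266, a ratio of −0.28, and stood at −0.09 in K562.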

How the data were processed

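Total RNA from cultured human U266 and K562 cells was labelled with biotin for Affymetrix arrays, per the labels' protocols. The values are the authors' deposited probe set intensity on a linear scale. Software, background correction, normalisation between arrays and probe summary are unknown here: each is not given in the sources used.

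Of 33252 probe sets, 21214 were listed in the platform annotation and 19460 had 1 gene symbol, which gave 18417 genes. Of the synthetases, 33 had 1 probe set and VARS1 and VARS2 had 2, and the brightest by mean log2 intensity was used. The 2 probe sets of VARS1 held the same values on all arrays. Intensities below each array's 40th percentile over listed probe sets (305 to 331) were raised to it, and a gene above it on both arrays counted as measured. Log2 ratios were centred on the median of measured probe sets. With 1 array per group no test was possible, so genes were counted at 1.5-fold beside the share of all genes. The precision is limited by the number of arrays. Promoter sequences are RefSeq's (GRCh38.p14). Python 3.11.15, numpy 2.4.6 and pandas 2.3.3 were used, and simulated data with known changes were used to test the script.

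The members, the lists and the search for promoter motifs were chosen with earlier results of these data known. Named genes were every synthetase, with intensities for those at least 1.5-fold different and for the 3 highest and lowest per compartment. Added were same-amino-acid genes, related genes past 1.5-fold or otherwise up to 2 per list by size, ASNS, ATF4 and DDIT3, and up to 5 per direction between vehicle arrays. PSTK, TRMU, XPOT, EIF2AK4 and GCN1 were named after their values were seen, as were the markers LYZ, EPCAM and KRT18. The same holds for the genes of the cytosolic elongation list other than EEF1D. Alternatives were quantile normalisation, no centring, other floors, the mean of probe sets and probe sets with several symbols.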

Additional observations from a re-analysis of the deposited data

Results flagged for a closer look

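SEPSECS went opposite ways in the 2 lines, outside the central 80% of all genes in both. Its log2 ratio was 0.97 in K562 and −0.26 in U266, a difference of 1.23. It was flagged because the single ratio of K562 lay above 0 and the single ratio of U266 below it. With 1 array per group the difference was not tested.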

How the results depend on the processing

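The count of mitochondrial genes at least 1.5-fold higher in K562, 1 as reported, was 0 with quantile normalisation, 0 without centring and 0 under a floor at the 60th percentile, where WARS2 had a lower bound of 0.39. Under it 1 in place of 2 mitochondrial genes was in the highest 10% in K562, since 13 of 16 stayed measured. Mitochondrial genes at least 1.5-fold higher in K562 than in U266 with vehicle, 3 as reported, were 1 under that higher floor and 5 with no floor, and SARS2 had an upper bound of −0.46 in place of −0.85 under the former. The cytosolic K562 median stayed between 0.19 and 0.20 under all 7 planned settings, and 8 or 9 cytosolic genes were in the highest 10%. The median difference between lines for mitochondrial genes, 0.02, was −0.00205 under the higher floor. Of 725 single values under other settings, 723 moved by less than the SD between probe sets in their own comparison. That SD was 0.11 in U266 and 0.12 in K562, and a wider 0.38 between the vehicle arrays. Part of this outcome was fixed in advance. Leaving out the centring shifts every ratio by 1 constant, −0.0096 in U266, −0.0048 in K562 and −0.025 between the vehicle arrays. Mean of probe sets and probe sets with several symbols left each of the counts at 1.5-fold and in the highest 10% as it was. Among the synthetases the mean of probe sets could alter only VARS2. The others had 1 probe set or, in VARS1, 2 with the same values. No paired analysis was possible because each group has 1 array. Signal over background limits AARS2 and VARS2, which lie close to the floor.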
